A study of Mus musculus with 4 samples.

Results

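MHC class I molecules display peptides from inside the cell on its surface, where CD8 T cells and NK cells inspect them. A heavy chain pairs with the light chain β2-microglobulin, and the pair is loaded in the endoplasmic reticulum with peptides that a transporter brings in from the cytosol. Many of those peptides are cut by the immunoproteasome, a form of the proteasome that is abundant in immune cells and is induced by interferon-γ in others. The transactivator NLRC5 sits on the promoters of these genes and raises their transcription together. In salivary glands (SGs), as in most tissues, epithelial cells carry class I at a moderate level, and lymphocytes and antigen-presenting cells carry much of it.

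The values of 10 genes of this pathway were followed in SGs: B2m, H2-K1, H2-D1, H2-T23, Tap1, Tap2, Tapbp, Psmb8, Psmb9 and Nlrc5. Every non-control probe that carries one of these symbols was taken, which gave 13 of the 55681 probes on the array. Of these, 12 passed the filter on dim probes, which asks that both arrays of either genotype read well above background, and were tested among 31016 probes in all. The other one, a second Psmb9 probe, was well above background on 0 arrays.

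The study compared Myd88-/- mice, which lack the adaptor that carries signals from most Toll-like receptors and from the interleukin-1 receptor family, with Myd88+/+ mice. RNA of each sample was hybridized to a 1-colour Agilent whole mouse genome array, and the labels name 2 arrays of each genotype, all from female mice of strain C57/BL6 at 10 weeks of age. Both genotypes were born to heterozygous parents, the deletion is carried in every cell of the body, and no treatment or transgene is named for either. The labels give the tissue as submandibular gland (SMG) together with sublingual gland (SLG), freed of lymph nodes, connective tissue and fat, whereas the study's text speaks of whole SMGs and gives a larger n for each genotype than the labels do. The labels do not say whether the arrays come from separate mice, so the p-values measure only the spread between these samples, which may be technical.

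Each value below is a log2 signal, that is, the log2 intensity of a probe minus the 75th percentile of its array, so that 0 lies at that percentile. A difference is the mean log2 signal of the arrays labelled Myd88-/- minus that of the arrays labelled Myd88+/+, with its standard error and its adjusted p from limma over all 31016 tested probes. The 75th percentile itself was 237 to 321 intensity units, and probes well above background made up 52.2% (array 1) and 68.4% (array 2) of all probes for Myd88-/- against 74.2% and 55.1% for Myd88+/+. The Myd88 probe, which starts at base 1629 of its transcript and has 10 spots, read 1.51 and 1.41 on the arrays labelled Myd88-/-, compared with 1.15 and 1.07 on arrays labelled Myd88+/+. It was not lower on the arrays labelled Myd88-/-, so it does not check the labels, and whether it lies in the deleted part of the gene is not known here. Lymphocyte, antigen-presenting cell, skeletal muscle and adipocyte markers were also lower on the arrays labelled Myd88-/-, and their values are given beside the class I genes further on.

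As a group, the class I probes were lower on the arrays labelled Myd88-/-, but by very different amounts. The lowest difference belonged to 1 probe of Nlrc5 and was followed by Psmb9, B2m and Psmb8, whereas the heavy chains and the transporter differed by less than 0.5 on the log2 scale. No class I probe passed an adjusted p of 0.05 in limma, and neither did any of the other tested probes (0 of 31016, or 0%). At an unadjusted p under 0.05, 4 of the 12 tested class I probes were lower and 0 were higher, where 5.92% of all tested probes were lower and 8.36% were higher. The unpaired t-test named in the study's methods, run on the same log2 values, left 2 of the 12 at an unadjusted p under 0.05 and 0 after adjustment. Of all 31016 tested probes it left 3685, of which 1145 were lower, and 1 after adjustment. In limma with a trended and robust variance, 2 of the 12 passed the adjusted threshold, Psmb9 and the lower of the Nlrc5 probes. There, 373 of all 31016 tested probes passed.

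By sign alone, 11 of the 12 class I probes were lower and 1 was higher, whereas 40.6% of all tested probes were lower. On 9 of the 12, both arrays labelled Myd88-/- lay below both arrays labelled Myd88+/+, and on 1 both lay above. Of all tested probes, 17.8% were apart in the lower direction and 31.6% in the higher. The median difference was -0.28 over the class I probes and 0.06 over all tested probes, of which the central 90% ran from -0.73 to 0.62. Because RNA came from whole glands, fewer cells of a type that carries class I and less class I RNA per cell cannot be told apart. With 2 arrays against 2, an exact permutation test of a single probe cannot go below p = 0.333 (two-sided).

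**Figure D1:**
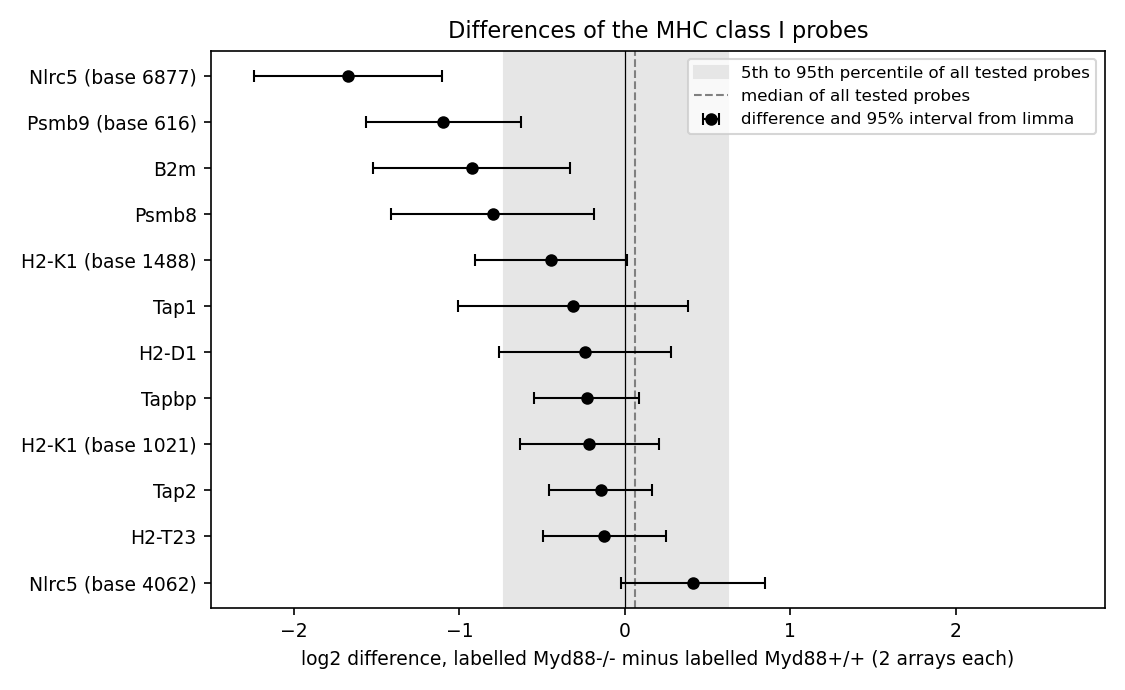
Log2 difference (arrays labelled Myd88-/- minus arrays labelled Myd88+/+, 2 each) of the 12 tested class I probes, with 95% intervals from limma. The grey band runs from the 5th to the 95th percentile of all 31016 tested probes (-0.73 to 0.62) and the dashed line marks their median (0.06); Nlrc5 (base 6877), Psmb9, B2m and Psmb8 lie below the band and Nlrc5 (base 4062) is the only class I probe above 0.

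B2m encodes β2-microglobulin, the light chain without which classical heavy chains do not reach the cell surface. Its probe, at chr2:121978401-121978460 (NCBI37/mm9), starts at base 440 of the transcript and has 2 spots. It read 4.42 and 4.03 on the arrays labelled Myd88-/-, compared with 5.30 and 5.004 on arrays labelled Myd88+/+. The genotypes did not overlap, and the gap between them was wider than the gap within either. The difference was -0.93 (SE 0.21), or 1.90-fold lower, with an adjusted p of 0.276 in limma and a 95% interval of -1.52 to -0.33. Only 3.59% of all tested probes had a lower difference. Leaving out 1 array at a time gave differences of -1.13 to -0.73.

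H2-K1 encodes the classical heavy chain H-2K, which presents peptides to CD8 T cells, and it has a pair of probes on the array. The probe that starts at base 1488 (chr17:34133055-34133114) has 10 spots, whose SD on an array was 0.045 to 0.062. It read 6.04 and 5.71 on the arrays labelled Myd88-/-, compared with 6.36 and 6.29 on arrays labelled Myd88+/+, without overlap. The difference was -0.45 (SE 0.16) with an adjusted p of 0.356 in limma, and its 95% interval of -0.91 to 0.01 just reached 0. Without Myd88-/- array 2 it was -0.28. The second H2-K1 probe, which starts at base 1021 (chr17:34133984-34134043), read 5.23 and 5.08 against 5.50 and 5.24. Here Myd88-/- array 1 lay almost level with Myd88+/+ array 2. The difference was -0.21 (SE 0.15), with an adjusted p of 0.565 in limma and a 95% interval of -0.64 to 0.21, and it was -0.09 without Myd88+/+ array 1.

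H2-D1 encodes the classical heavy chain H-2D. Its probe at chr17:35403886-35403945 starts at base 1179 and read 5.66 and 5.45 on the arrays labelled Myd88-/-, compared with 5.98 and 5.62 on arrays labelled Myd88+/+. The genotypes overlapped. The difference was -0.24 (SE 0.18), with an adjusted p of 0.595 in limma and a 95% interval of -0.76 to 0.28. Without Myd88+/+ array 1 it was -0.07.

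H2-T23 encodes the heavy chain of Qa-1, a non-classical class I molecule that shows leader peptides of other class I heavy chains to the NK receptor CD94/NKG2A. Its probe starts at base 980, and its 60 bases span 237 bases of the genome (chr17:36167338-36167574), so that it crosses an exon junction. It read 5.72 and 5.73 on the arrays labelled Myd88-/-, compared with 5.96 and 5.74 on arrays labelled Myd88+/+. Both arrays labelled Myd88-/- lay level with Myd88+/+ array 2, and only Myd88+/+ array 1 stood higher. The difference was -0.12 (SE 0.13), with an adjusted p of 0.706 in limma and a 95% interval of -0.50 to 0.25.

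The second H2-K1 probe and the H2-T23 probe are shown because they share part of their letters, so that each may take up some transcript of the other gene. Capitals mark the run of 29 bases that is the same in both.
H2-K1 (base 1021): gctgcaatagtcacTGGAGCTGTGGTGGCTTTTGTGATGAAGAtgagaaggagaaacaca
H2-T23 (base 980): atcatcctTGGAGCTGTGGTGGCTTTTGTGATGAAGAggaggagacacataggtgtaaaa
These 2 probes differed by -0.21 and -0.12 between the genotypes, against -0.45 for the H2-K1 probe at base 1488, which shared no run of 20 or more bases with a probe of another gene, and the gap between the probes was not tested. The same search found no such run in the other class I probes, apart from a run of 22 bases between the second H2-K1 probe and LOC100044874 and of 20 bases between the H2-T23 probe and Gm11127. It covered probes of the array, not whole transcripts, and class I heavy chain genes are close copies of each other, so the value of a single heavy chain gene stays uncertain.

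**Figure D2:**
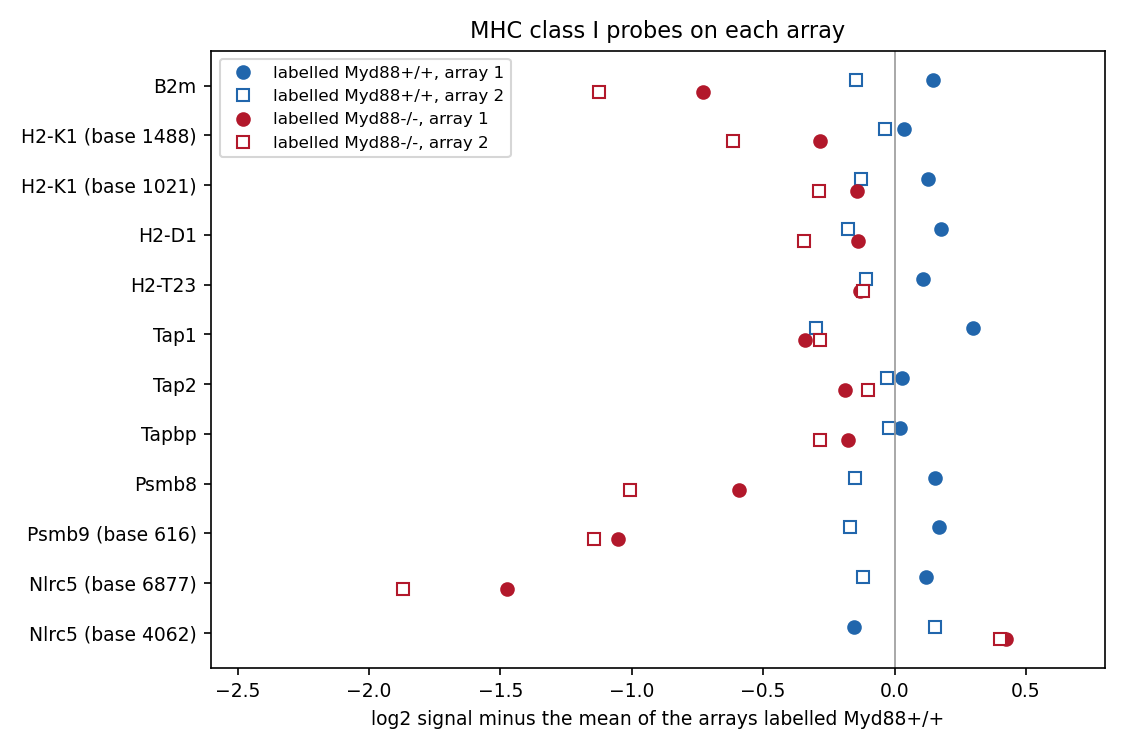
Log2 signal of each tested class I probe on each of the 4 arrays, minus the mean of the 2 arrays labelled Myd88+/+ for that probe. The arrays labelled Myd88-/- (red) sit clearly left of those labelled Myd88+/+ (blue) for B2m, Psmb8, Psmb9 and Nlrc5 (base 6877), overlap them for H2-D1 and Tap1, and sit to the right for Nlrc5 (base 4062).

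Tap1 and Tap2 encode the paired chains of the transporter that pumps peptides into the endoplasmic reticulum. The Tap1 probe (base 2020, chr17:34330854-34330913) has 10 spots, whose SD on an array was 0.066 to 0.100. It read -0.81 and -0.75 on the arrays labelled Myd88-/-, compared with -0.17 and -0.77 on arrays labelled Myd88+/+. Only Myd88+/+ array 1 stood apart, and the other 3 arrays read alike. The difference was -0.31 (SE 0.24), with an adjusted p of 0.606 in limma and a 95% interval of -1.01 to 0.38. Without Myd88+/+ array 1 it was -0.01.

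The Tap2 probe (base 2339, chr17:34353116-34353175) read 3.26 and 3.34 on the arrays labelled Myd88-/-, compared with 3.47 and 3.42 on arrays labelled Myd88+/+. These did not overlap, but the gap between the nearest arrays was small. The difference was -0.14 (SE 0.11), with an adjusted p of 0.596 in limma and a 95% interval of -0.46 to 0.17. Tapbp encodes tapasin, which holds empty class I molecules at the transporter until a peptide fits. Its probe (base 2477, chr17:34065963-34066022) read 2.57 and 2.46 against 2.76 and 2.72, without overlap. The difference was -0.23 (SE 0.11), with an adjusted p of 0.440 in limma and a 95% interval of -0.55 to 0.09.

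Psmb8 and Psmb9 encode catalytic subunits that replace their constitutive counterparts in the immunoproteasome and change which peptides are cut. The Psmb8 probe (base 856, chr17:34337771-34337830) read 0.86 and 0.44 on the arrays labelled Myd88-/-, compared with 1.60 and 1.30 on arrays labelled Myd88+/+. The genotypes did not overlap. The difference was -0.80 (SE 0.21), or 1.74-fold lower, with an adjusted p of 0.297 in limma and a 95% interval of -1.41 to -0.19. Leaving out 1 array at a time gave -1.01 to -0.59.

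The first Psmb9 probe (base 616, chr17:34319174-34319233) read 0.29 and 0.20 on the arrays labelled Myd88-/-, compared with 1.51 and 1.18 on arrays labelled Myd88+/+. The arrays of each genotype lay close together and far from those of the other. The difference was -1.10 (SE 0.16), or 2.14-fold lower, with a 95% interval of -1.57 to -0.63. Its adjusted p was 0.262 in limma, and it was 0.039 with a trended and robust variance. The second Psmb9 probe (base 1477 of another transcript, chr17:34322762-34322821) read -6.16 and -5.09 against -4.85 and -6.51. It was not well above background on any array, and its values have no order.

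Psmb8, Psmb9, Tap1 and Tap2 lie next to one another in the class II region of the MHC on chromosome 17, and H2-K1, H2-D1, H2-T23 and Tapbp lie on the same chromosome. B2m and Nlrc5 lie on chromosomes 2 and 8, outside the MHC. Within the MHC, the values ranged from -1.10 for Psmb9 to -0.12 for H2-T23.

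Nlrc5 encodes the class I transactivator, and its probes disagreed. The probe that starts at base 6877, toward the end of the transcript (chr8:97051105-97051164), read -1.21 and -1.61 on the arrays labelled Myd88-/-, compared with 0.38 and 0.14 on arrays labelled Myd88+/+. The genotypes lay far apart. The difference was -1.67 (SE 0.20), or 3.19-fold lower, the lowest among the class I probes, with an adjusted p of 0.262 in limma and a 95% interval of -2.24 to -1.11. Only 1.42% of all tested probes had a lower difference. It passed the adjusted threshold with normexp background correction, at a difference of -1.17, and with a trended and robust variance.

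The other Nlrc5 probe starts at base 4062, and its 60 bases span 147 bases of the genome (chr8:97030478-97030624), so that it crosses an exon junction. It read -2.53 and -2.55 on the arrays labelled Myd88-/-, compared with -3.10 and -2.80 on arrays labelled Myd88+/+. The order of the genotypes was the reverse of that of the first probe, again without overlap. The difference was 0.41 (SE 0.15), with an adjusted p of 0.365 in limma and a 95% interval of -0.02 to 0.85. This probe was well above background on all 4 arrays but dim. Its mean on the arrays labelled Myd88+/+ lay at percentile 16.4 of the tested probes, against 60.1 for the probe at base 6877. Whether the probes read different transcripts of Nlrc5 was not tested.

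The arrays differed in how many probes rose above background, and within each genotype one array had many and the other few. For the 4 probes with an unadjusted p under 0.05, arrays of like detection were therefore set against each other. Between Myd88-/- array 1 and Myd88+/+ array 2, with fewer detected probes, the difference was -0.58 for B2m, -0.44 for Psmb8, -0.88 for Psmb9 and -1.35 for Nlrc5. Between Myd88-/- array 2 and Myd88+/+ array 1, with more, it was -1.27, -1.16, -1.31 and -1.99 in the same order. The sign of these values carries nothing new, since the genotypes did not overlap on these probes. The sizes were larger in the second pair.

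The promoters of 8 of the 10 genes were found in RefSeq (GRCm38.p6) as windows of 250 bases before to 50 bases after a start site, and none was found for Tap2 and Nlrc5. Class I promoters are known for a shared module in which an X box with a CRE-like motif, here searched as TGACG, is followed by a Y box, here ATTGG, and for a κB element and an interferon-stimulated element further out. Searched on both strands of 32851 windows, TGACG occurred in 20.8%, ATTGG in 37.4% and GGGATTCCC, for the κB element, in 0.353%. The interferon-stimulated element was searched as GAAANNGAA, which occurred in 8.56%, and as GAANTGAAA, which occurred in 1.83%. TGACG followed by ATTGG on the same strand, with 10 to 30 bases between them, occurred in 0.743% of windows. Among the class I genes it occurred in B2m, H2-K1 and H2-D1, with 20 bases between the motifs in each. Their stretches are shown because the light chain and the classical heavy chains share this layout although their differences were not alike. Capitals mark, in order, GAAANNGAA, TGACG and ATTGG in B2m, and GGGATTCCC, the reverse complement of GAANTGAAA, TGACG and ATTGG in the heavy chain genes.
B2m, chr2:122147543-122147643, plus strand: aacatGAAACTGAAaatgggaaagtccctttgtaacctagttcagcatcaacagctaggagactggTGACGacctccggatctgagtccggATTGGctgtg
H2-K1, chr17:34000354-34000462, minus strand: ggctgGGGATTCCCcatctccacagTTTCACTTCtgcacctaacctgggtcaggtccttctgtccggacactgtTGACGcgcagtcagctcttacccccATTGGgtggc
H2-D1, chr17:35262919-35263027, plus strand: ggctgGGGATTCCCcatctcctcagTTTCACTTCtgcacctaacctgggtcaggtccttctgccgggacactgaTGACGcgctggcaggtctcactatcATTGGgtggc
The H2-K1 and H2-D1 stretches were identical at 98 of 109 bases (89.9%). The H2-T23 window held GAAANNGAA and 1 ATTGG, and the Tapbp window held 2 ATTGG. Psmb9 and Tap1 start in opposite directions from overlapping windows, which held 1 TGACG and 1 ATTGG but not in the spacing searched, and the Psmb8 window held none of these motifs. A match shows that the letters are there and no more.

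The counts of the gene lists that follow stand against 5.92% of all tested probes lower and 8.36% higher at an unadjusted p under 0.05, 40.6% lower by sign, and a median of 0.06. Of the other MHC class I heavy chain genes, 15 could be tested. By the brightest tested probe of each gene, 2 of the 15 were lower at an unadjusted p under 0.05 and 0 were higher, 13 of 15 were lower in sign (13 or 14 under the other scalings and background corrections), and the median difference was -0.18. H2-Q8, of the Qa-2 family, read -0.84 and -0.88 on the arrays labelled Myd88-/- against 0.47 and 0.01, a difference of -1.10 (SE 0.20, adjusted p = 0.263 in limma). H2-M3, which presents N-formylated peptides of bacterial and mitochondrial origin, read -1.28 and -1.34 against -0.38 and -0.74, a difference of -0.75 (SE 0.17, adjusted p = 0.276 in limma). Both were without overlap between the genotypes.

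The remaining 13 heavy chain genes lay closer to 0. The differences were -0.40 for H2-K2, -0.35 for H2-Q7, -0.30 for H2-Bl, -0.20 for H2-T24 and -0.19 for H2-Q6. They were -0.18 for H2-M2, -0.17 for H2-Q2, -0.16 for H2-Q5, -0.14 for H2-M11 and -0.04 for H2-Q10. H2-T10 differed by -0.0046, H2-T9 by 0.04 and H2-Q1 by 0.12. Of these 13, the arrays were apart only for H2-K2 and H2-Q7, which were lower, and for H2-T9, which was higher. As for the classical genes, near-identical copies may share signal.

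Among 12 tested class I-like molecules, 2 were lower and 2 were higher at an unadjusted p under 0.05, and the median was -0.20. Under the other scalings and background corrections 0 to 3 were lower and 1 or 2 higher, with medians of -0.25 to -0.09. Cd1d1, which encodes a molecule that presents lipids to NKT cells, and the related gene Cd1d2 differed by -0.71 (SE 0.13) and -0.67 (SE 0.17). H60c and Raet1a, which encode ligands of the activating receptor NKG2D, differed by 0.72 (SE 0.23) and 2.36 (SE 0.72). Raet1a passed the filter only through the arrays labelled Myd88-/-, at -3.19 and -2.48. It was well above background on only 1 of the arrays labelled Myd88+/+, at -4.29 and -6.10, so the size of its difference rests partly on background.

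Of the 7 chaperones, peptide editors and trimming enzymes listed as partners in peptide loading and trimming, 5 were higher by sign and 2 were lower. At an unadjusted p under 0.05, 2 of the 7 were higher and 0 were lower, and the median was 0.28. Tapbpl, which encodes a tapasin-related editor of the bound peptide, read 2.17 and 2.27 on the arrays labelled Myd88-/- against 1.89 and 1.67, a difference of 0.44 (SE 0.13, adjusted p = 0.323 in limma). Calr, which encodes calreticulin, read 4.61 and 4.39 against 4.06 and 4.11, a difference of 0.41 (SE 0.13, adjusted p = 0.328 in limma). Calreticulin also folds many secreted glycoproteins and is not particular to class I. Of the other 5, whose unadjusted p exceeded 0.05, the folding factors Canx, Pdia3 and Uggt1 differed by 0.28, 0.26 and 0.34. The trimming aminopeptidases Erap1 and Lnpep differed by -0.16 and -0.40, the sign of most class I probes, and only for Lnpep were the arrays apart. The higher count was 0 to 3 of 7 under the other scalings and background corrections.

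In the proteasome, the other gene for an induced catalytic subunit had the sign of Psmb8 and Psmb9, and the genes of the constitutive core did not. Psmb10, the remaining inducible catalytic subunit, read 2.96 and 2.94 on the arrays labelled Myd88-/-, compared with 3.32 and 3.39 on arrays labelled Myd88+/+. The arrays of each genotype were close together and apart from those of the other, and the difference was -0.40 (SE 0.11, adjusted p = 0.292 in limma). It was 1 of 4 further immunoproteasome genes, of which 1 was lower and 0 were higher at an unadjusted p under 0.05, with a median of -0.09 (0 to 2 lower under the other scalings and background corrections). By sign, 2 of the 4 were lower and 2 were higher, the latter being Psme1 at 0.23 and Pomp at 0.10. Of the 14 constitutive 20S subunits, 0 were lower and 0 were higher at an unadjusted p under 0.05. Their differences ran from 0.03 to 0.23 with a median of 0.09, near the median of all tested probes. All 14 were above 0 at the scaling used here, and 9 to 12 of the 14 were with another scaling or background correction. The difference between the inducible and the constitutive subunits was not tested.

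Of 13 tested genes for transcription factors that bind class I promoters, 2 were lower and 0 were higher at an unadjusted p under 0.05, with a median of -0.07. Irf8, a factor of B cells and myeloid cells, read 0.68 and 0.64 on the arrays labelled Myd88-/- against 2.02 and 1.47, a difference of -1.08 (SE 0.23, adjusted p = 0.271 in limma). Irf2 differed by -0.41 (SE 0.13, adjusted p = 0.326 in limma). By sign, 9 of the 13 were lower at the scaling used here and 9 to 13 with another.

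Interferon-γ raises class I, the immunoproteasome and Nlrc5 in many cells. The Ifng probe was well above background on none of the arrays, and 17 genes of its receptor, signalling and targets could be tested. At an unadjusted p under 0.05, 5 of the 17 were lower and 0 were higher, 14 of 17 were lower in sign, and the median was -0.29. The lowest was Ubd, which encodes the ubiquitin-like protein FAT10 and read -3.34 and -3.58 on the arrays labelled Myd88-/- against -0.32 and -1.83. Its difference was -2.38 (SE 0.57, adjusted p = 0.284 in limma). Gbp3, a guanylate-binding protein, differed by -1.004 (SE 0.14), Socs1, an inhibitor of cytokine signalling, by -0.97 (SE 0.15), and Cxcl9, a chemokine for T cells, by -0.75 (SE 0.23), each with an adjusted p of 0.262 to 0.323 in limma. Of the 5, Gbp2 lay nearest to 0. The lower count was 2 to 8 of 17 under the other scalings and background corrections.

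Of 6 tested receptors that bind class I, 0 were lower and 0 were higher at an unadjusted p under 0.05, and the median was -0.44. Under the other scalings and background corrections 0 to 2 were lower, with medians of -0.50 to -0.14. Cd8a, which encodes the coreceptor chain of CD8 T cells, was well above background on both arrays labelled Myd88+/+ and on neither array labelled Myd88-/-. It was at least 1.66-fold lower on the latter (adjusted p = 0.482 in limma), where the bound sets the mean of the brighter group against, for each dim array, the probe's own reading or the dimmest signal well above background there, whichever was higher. The fold rests on Myd88+/+ array 1, at -2.52, since Myd88+/+ array 2 read -3.88 and Myd88-/- array 2 read -3.89.

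**Figure D3:**
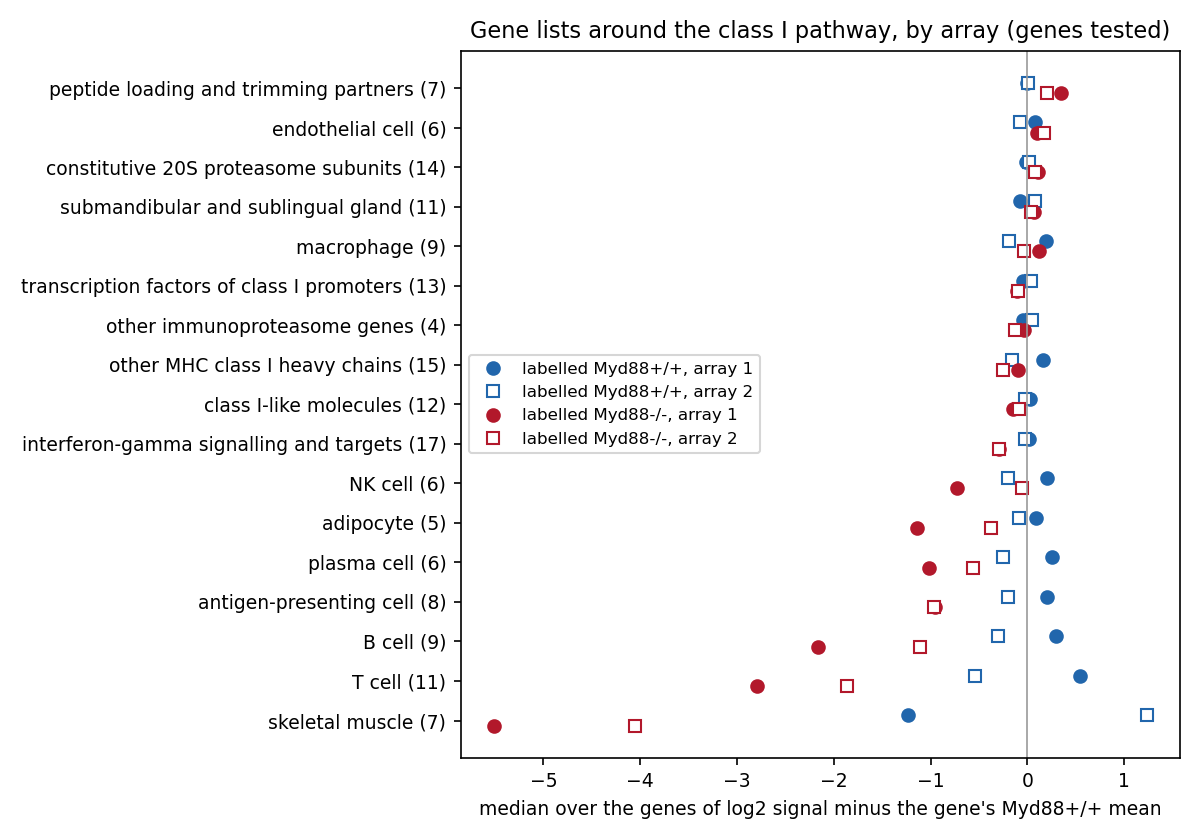
Median over the tested genes of each list of the log2 signal minus the gene's mean on the arrays labelled Myd88+/+, for each of the 4 arrays, with the number of genes in parentheses. Skeletal muscle, T cell and B cell genes lie furthest left on the arrays labelled Myd88-/-, and T cell and B cell genes were lower on Myd88-/- array 1 than on array 2.

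Markers of B cells, T cells and antigen-presenting cells, which are rich in class I, were lower on the same arrays. In the cell lists, ranges are given over the genes well above background on all 4 arrays, since other readings are partly background. The medians over all tested genes were the same with genes that were dim in 1 genotype set at their bound. That bound leaves out genes dim on 1 array only. Over the genes well above background on all 4 arrays, medians were -0.90 for B cell, -2.31 for T cell and -0.93 for antigen-presenting cell genes. They were -0.21 for NK cell, 0.23 for plasma cell and -4.26 for skeletal muscle genes, and hardly moved for the other cell lists. Of 9 tested B cell genes, 7 were lower and 0 were higher at an unadjusted p under 0.05, with a median of -1.91 and a range of -5.08 to -0.33 over 6 genes. The 2 brightest on the arrays labelled Myd88+/+, Blnk and Cd79b, differed by -0.51 and -5.08. Ms4a1, which encodes the B cell surface protein CD20, was well above background on both arrays labelled Myd88+/+ and on neither labelled Myd88-/-, where it read at least 28.5-fold lower. By flow cytometry of SMG cells from male mice, the study found the reverse, with more B cells and more IgA+ plasma cells in Myd88-/- mice. The gap between that measure of cells and these RNA values was not examined here. Of 11 tested T cell genes, 8 were lower and 0 were higher, with a median of -2.71 and a range of -3.06 to -0.06 over 7 genes, and the 2 brightest, Cd3e and Lck, differed by -0.06 and -3.06. Of 8 tested antigen-presenting cell genes, 6 were lower and 0 were higher, with a median of -1.02 and a range of -1.06 to -0.20 over 6 genes. The 2 brightest of these were the class II genes H2-Ab1 and H2-Eb1, at -1.06 and -1.05. With normexp background correction the medians over all tested genes were nearer 0, at -0.78 for B cell, -1.46 for T cell and -0.69 for antigen-presenting cell genes. With every other scaling they were within 1.5 times of the medians given over all tested genes.

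The signals of the T cell list summed to log2 values of 2.29 and 2.66 on the arrays labelled Myd88-/-, compared with 4.38 and 3.61 on arrays labelled Myd88+/+. Over the B cell list it was 3.41 and 3.47 against 4.82 and 4.35, and over the antigen-presenting cell list 5.94 and 5.89 against 7.12 and 6.73. In all 3 sums Myd88+/+ array 1 was the highest, as it was for 11 of the 12 tested class I probes, all but Nlrc5 (base 4062). Within the arrays labelled Myd88-/-, most class I probes were lower on array 2, among them B2m, Psmb8, Psmb9 and Nlrc5 (base 6877). The probes of H2-T23, Tap1 and Tap2 were higher there. Relative to the mean of the arrays labelled Myd88+/+, the median over the T cell list was -2.79 on Myd88-/- array 1 and -1.86 on Myd88-/- array 2. For the B cell list it was -2.17 and -1.11, although the sums of that list were nearly level. Some genes of these lists were not well above background on Myd88-/- array 1, such as Cd3g at -6.23 and Bank1 at -6.15. The antigen-presenting cell list was nearly level, at -0.95 and -0.97. The part of these cells in the class I values was not tested, and the order of 2 arrays of a genotype cannot show it.

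Of 6 tested NK cell genes, 1 was higher (Prf1, at 0.47) and 0 were lower at an unadjusted p under 0.05, with a median of -0.53 (-0.04 with normexp) and a range of -0.64 to 0.47 over 3 genes. The 2 brightest, Nkg7 and Gzma, differed by -0.21 and -0.64. Of 9 tested macrophage genes, 1 was higher and 0 were lower, with a median of 0.03 and a range of -0.44 to 0.65 over 8 genes, and the 2 brightest, Csf1r and Cd68, differed by 0.03 and -0.09. Of 6 tested plasma cell genes, 2 were lower and 1 was higher, with a median of -0.78 (-0.27 with normexp) and a range of 0.05 to 0.39 over 3 genes. The brightest, Xbp1, differed by 0.23, and the next, Igj, read 1.28 and 0.76 on the arrays labelled Myd88+/+ and was well above background on only 1 of those labelled Myd88-/-. Of 6 tested endothelial genes, 1 was lower and 1 was higher, with a median of 0.16 and a range of -0.64 to 1.14, and the 2 brightest, Kdr and Vwf, differed by 0.34 and -0.07.

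Markers of skeletal muscle and of adipocytes were lower as well. All 7 tested skeletal muscle genes were lower at an unadjusted p under 0.05, with a median of -4.90 and a range of -5.99 to -2.11 over 4 genes (median -2.94 with normexp), and the 2 brightest, Myh4 and Tnnc2, were at least 218-fold lower and lower by a difference of -5.99. Summed over the list, muscle genes read 1.24 and 1.27 on the arrays labelled Myd88-/- against 4.33 and 6.85, so that here Myd88+/+ array 2 was the highest. Of 5 tested adipocyte genes, 2 were lower and 0 were higher, with a median of -0.76 and a range of -1.09 to -0.65, and the 2 brightest, Fabp4 and Cfd, differed by -0.84 and -0.65. The lower count was 1 to 5 of 5 under the other scalings and background corrections. Of the 11 tested genes of the SMG and SLG themselves, 4 were higher and 0 were lower, with a median of 0.05 and a range of -0.29 to 1.57. The 2 brightest, Dcpp2 and Dcpp1, differed by 0.34 and 0.30, and all 11 gland genes were well above background on all 4 arrays. The higher count was 1 to 4 of 11 under the other scalings and background corrections. The part of muscle and adipocytes in the class I values was not tested, and the order of 2 arrays of a genotype cannot show it.

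**Figure D4:**
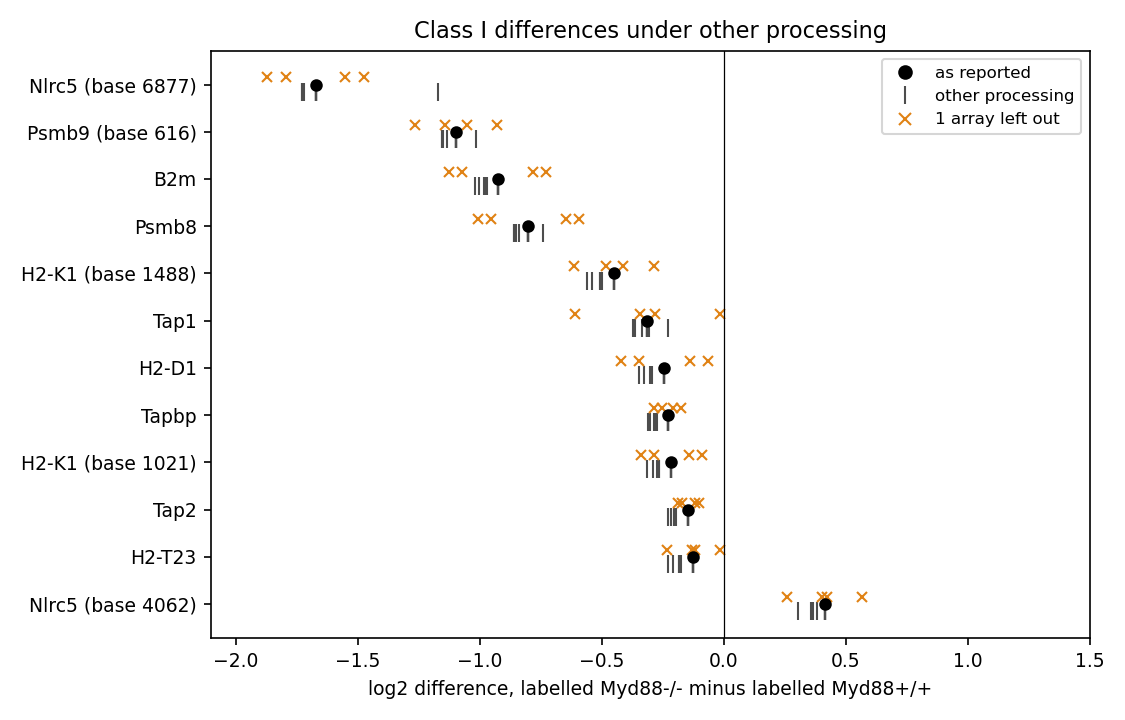
Log2 difference of each tested class I probe as reported (black points), under other processing (ticks) and with 1 array left out (crosses). All values of a probe lie on the same side of 0; those of Tap1 and H2-T23 come within 0.02 of it when Myd88+/+ array 1 is left out.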

How the data were processed

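The authors hybridized Cy3-labelled cRNA of each sample to 1 array and deposited the output of Feature Extraction 10.7.3.1. The processed signal in these deposited files is an intensity that was corrected for background, with no normalization between arrays, and flags of the same software name the spots that are well above background, saturated (0 here) or outliers. A deposited table of the whole series holds 4 value columns that match no single sample, and it was not used.

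Here, log2 processed signals of the 59305 non-control spots were expressed relative to the 75th percentile of their array. Outlier spots (99 to 131 per array) were left out and the spots of a probe were averaged. A probe was well above background on an array where a share above 0.5 of its spots carried that flag, and it was tested where this held on both arrays of at least 1 genotype. The genotypes were compared in R 4.3.3 by limma 3.58.1 (lmFit, then eBayes), and p-values were adjusted by Benjamini-Hochberg over 31016 probes (22312 genes) at a threshold of 0.05. The study's methods name an unpaired t-test, which was run as an alternative. All arrays lie on 1 slide, so no slide effect could be estimated, and precision is limited by how few arrays there are.

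Every probe of the class I genes is reported. In the other pathway lists, a gene stands by its brightest tested probe, and up to 4 genes per list with the largest difference at an unadjusted p under 0.05 are named, and every tested gene among the heavy chains. In the cell lists, the 2 brightest genes on the Myd88+/+ arrays are named, and Ms4a1, Prf1 and Cd8a were named after their values were seen. The genes, lists and motifs were chosen with earlier results of these data known. Probe positions are those of the deposited files (NCBI37/mm9), and promoters are those of RefSeq (GRCm38.p6). The alternatives planned and run numbered 16, with 1 added after seeing the data, and the fit was tested on simulated data.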

Additional observations from a re-analysis of the deposited data

How the results depend on the processing

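No tested class I probe changed its sign under any of the 17 alternatives it was part of (the brightest probe per gene leaves out 1 probe each of H2-K1 and Nlrc5). Among all probes, 124 passed the adjusted threshold with normexp background correction, 496 with array median scaling, 373 with a trended and robust variance and 1 with the methods' t-test, against 0 otherwise. Among class I probes, 1 passed with normexp (Nlrc5 at base 6877) and 2 with the trended and robust variance. At an unadjusted p under 0.05 stood 4430 of all 31016 tested probes as reported (41.4% of them lower). The count was 5557 with normexp (34% lower), 1320 with median scaling (75.4%) and 3685 with the t-test (31.1%). Class I probes with an unadjusted p under 0.05 numbered 4 as reported, 7 with normexp, 2 with median scaling (Psmb9 and Nlrc5), 2 with the t-test (Psmb9 and Nlrc5) and 2 to 6 with 1 array left out, the 2 without Myd88+/+ array 1 being Psmb9 and Nlrc5 and the 6 standing without Myd88+/+ array 2. Psmb9 (base 616) and Nlrc5 (base 6877) kept an unadjusted p under 0.05 in all 17, B2m in 14 and Psmb8 in 13.

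The median class I difference of -0.28 was -0.34 with the 75th percentile over detected probes, -0.33 with median scaling, -0.33 with quantile normalization, -0.36 with cyclic loess, -0.24 with no filter, -0.38 with the brightest probe per gene and -0.45 to -0.16 with 1 array left out. Of all tested probes, 4430 had an unadjusted p under 0.05 (41.4% of them lower), against 1320 with median scaling (75.4%), 4155 with detected probes (53.9%), 3876 with quantile normalization (51.4%), 4552 with cyclic loess (55.8%), 2850 without a filter, 2731 without Myd88+/+ array 1 and 2438 without Myd88+/+ array 2. The causes were not tested.

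With the replicate number as a block, 0 probes passed the adjusted threshold, 2680 had an unadjusted p under 0.05, and the same count of 4 class I probes did, with a median of -0.28, so the block changed no call. Same-numbered arrays deviated in opposite directions (r = -0.384 across 31016 probes). With 2 arrays of each genotype, the crossed value is the same number with its sign reversed (0.384). The correlation therefore cannot show whether the numbers pair the samples. The crossed pairing, chosen after seeing the data, gave 0 adjusted calls, 5203 probes and 4 class I probes at an unadjusted p under 0.05. Signal over background limits dim probes most on Myd88-/- array 1 and Myd88+/+ array 2, which had the fewest detected probes.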
